A study of Mus musculus with 12 samples.

Results

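Steroid inactivating enzymes were followed in mouse granulosa cells, the cells that surround the oocyte and secrete estradiol and, after the ovulatory signal, progesterone. The members were 6 genes named for this purpose as enzymes that inactivate progestins, estrogens or glucocorticoids: Akr1c14, Akr1c18, Hsd11b2, Hsd11b1, Sult1e1 and Srd5a1. A member was measured by its probe set that is annotated to exactly 1 gene, and 5 of the 6 had 1 such probe set each among 18193 genes tested; no member had another one as a check. Srd5a1 (steroid 5-alpha-reductase 1) had none in the probe table used and is not analysed here.

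Granulosa cells of preovulatory follicles were laser-captured from ovaries of 3-week-old mice and profiled on 12 one-colour Affymetrix arrays, 3 per group. The groups were bERKO mice (which lack estrogen receptor beta) given PMSG and then hCG, wild-type (WT) mice given PMSG and then hCG, bERKO mice given PMSG alone, and WT mice given PMSG alone. PMSG (pregnant mare serum gonadotropin) acts like follicle-stimulating hormone, and hCG (human chorionic gonadotropin) acts like luteinizing hormone. The labels give 48 h after PMSG for all groups and 4 h after hCG for the hCG groups. Whether the 48 h of the hCG groups ends at collection or at hCG is not settled here. Per the labels the replicates within a group are biological, but how many animals each array stands for is not stated there, so a p-value measures the spread between these samples.

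Progesterone is inactivated by 20-alpha-reduction, carried out by the Akr1c18 enzyme, or by 5-alpha-reduction, carried out by Srd5a1, followed by 3-alpha-reduction, carried out by the Akr1c14 enzyme. Sult1e1 attaches sulfate to estradiol and estrone, and the sulfated forms do not bind the estrogen receptors. Hsd11b2 oxidises corticosterone, the main glucocorticoid of the mouse, to an inactive form, and Hsd11b1 mainly runs the reverse reaction in cells, so its usual role is reactivation.

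The arrays had been scaled to a common level, and the deposited values were linear intensities. Changes were computed on normalized log2(intensity + 16) and are given with the standard error (SE). Every adjusted p comes from limma, with Benjamini-Hochberg adjustment over all 18193 genes, and a gene passed under 0.05. On this scale the lowest possible level is 4, and a change of a dim gene is understated. Between 18.7% and 30.0% of the probe sets of an array lay under an intensity of 16. A pair of arrays stood apart in the Gapdh 3'/5' ratio, a control for RNA integrity: it was 32.2 on WT hCG replicate 1 and 23.7 on bERKO PMSG replicate 3, and it lay between 4.72 and 11.2 elsewhere. The deleted gene, Esr2, had intensities of 296, 255 and 334 in bERKO and 398, 756 and 486 in WT after hCG, and 260, 382 and 195 in bERKO and 1290, 509 and 648 in WT after PMSG. It did not pass in either genotype comparison (change -0.66, adjusted p = 0.397 after hCG; -1.24, adjusted p = 0.307 after PMSG). The sources used here do not say where its probe set lies relative to the deleted part, so its level is no check of the labels. The granulosa markers Inha and Inhba, both inhibin subunits, were bright on all arrays, with 15317 to 22273 and 23062 to 31394. Of the other granulosa markers, Fshr had 451 to 4985, Foxl2 had 845 to 6817 and Amh had 2.90 to 64.5.

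The 5 measured enzymes did not move as a block. After hCG the estrogen sulfotransferase Sult1e1 appeared from near background, while the progestin enzyme Akr1c14 and the glucocorticoid oxidase Hsd11b2 fell in bERKO cells, and Akr1c18 and Hsd11b2 fell in WT cells. Akr1c14 was also lower after hCG in WT cells, but that change missed the threshold. Between genotypes after hCG, Akr1c14 alone passed and was lower in bERKO. Hsd11b1 stayed near background in every group.

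**Figure D1:**
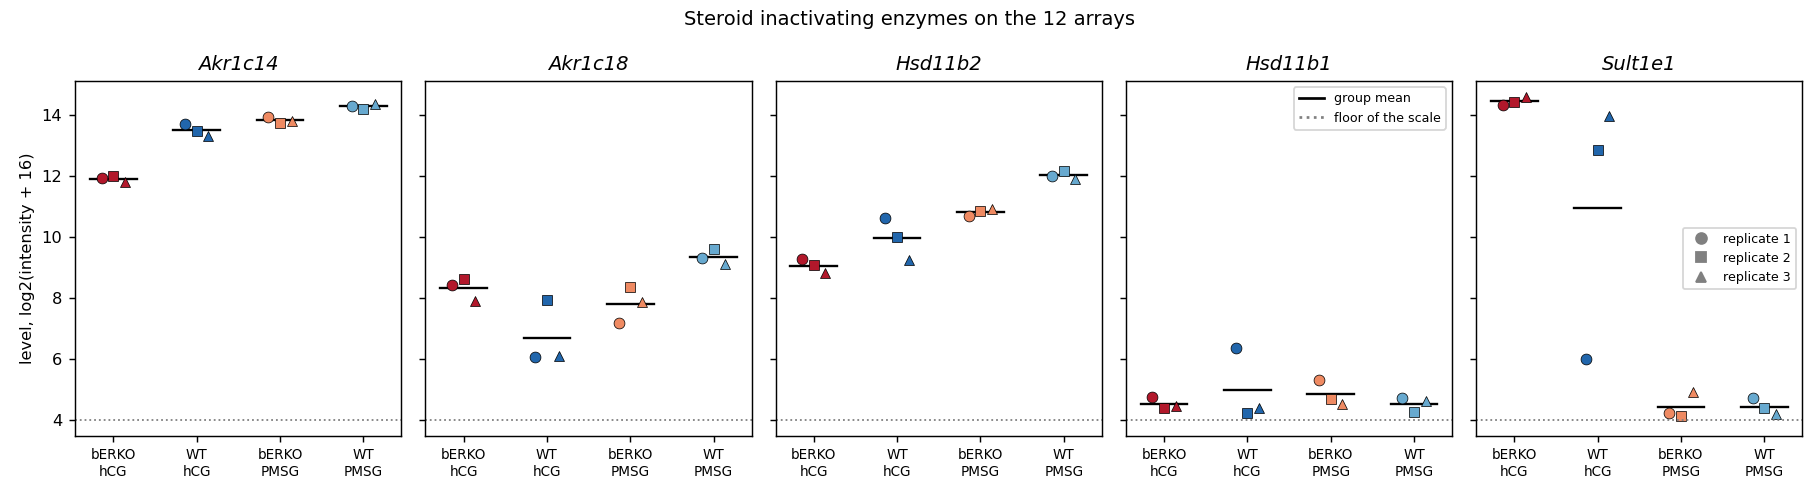
Level of each measured enzyme on each of the 12 arrays, as normalized log2(intensity + 16) on the vertical axis, by group; symbols are replicates, the bar is the group mean and the dotted line the floor of the scale at 4. Sult1e1 is near the floor on all 6 PMSG arrays and high on every hCG array except WT hCG replicate 1, and Akr1c14 is lowest on the 3 bERKO hCG arrays.

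Among the progestin enzymes, Akr1c14 (3-alpha-hydroxysteroid dehydrogenase) was lowest in bERKO cells after hCG. The 250 bases before its start (RefSeq, GRCm38.p6, chr13:4059341-4059590, plus strand) are shown because Akr1c14 and Akr1c18 are neighbours on chromosome 13, with 0 protein-coding genes between them in that annotation. Capitals, here and in the later sequences, would mark a motif match, and this sequence holds none.
Akr1c14: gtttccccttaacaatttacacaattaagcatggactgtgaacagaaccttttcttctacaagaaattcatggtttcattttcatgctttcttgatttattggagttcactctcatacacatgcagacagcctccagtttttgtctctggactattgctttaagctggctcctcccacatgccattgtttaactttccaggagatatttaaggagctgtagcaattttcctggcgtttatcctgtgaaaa

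Akr1c14 had intensities of 3939.8, 4088 and 3579 on the bERKO hCG arrays. The WT hCG arrays gave 13613, 9907 and 8401. PMSG alone gave 18805, 13930.5 and 17108 in bERKO and 18714, 18351 and 18196 in WT. The 3 bERKO hCG arrays were the lowest of all 12, and neither the hCG arrays and PMSG arrays of a genotype nor the genotypes after hCG overlapped.

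In bERKO cells Akr1c14 fell by 1.92 on the log2 scale after hCG (SE 0.22, adjusted p = 0.00034), a level 3.78-fold lower (95% interval 2.70 to 5.30). In WT cells its change was -0.78 (SE 0.22, 95% interval -1.27 to -0.30, adjusted p = 0.0960), which missed the threshold although the 3 hCG arrays lay below the 3 PMSG arrays. After hCG Akr1c14 was 3.03-fold lower in bERKO than in WT (95% interval 2.17 to 4.25; change -1.60, SE 0.22, adjusted p = 0.00642). After PMSG alone the change of bERKO against WT was -0.47 (SE 0.22, adjusted p = 0.547). The bERKO response minus the WT response was -1.13 (95% interval -1.82 to -0.45, adjusted p = 0.109), so a difference between the responses was not shown at the threshold. The genotype call after hCG held with each array left out in turn (-1.697 to -1.496, adjusted p 0.00770 to 0.0348) but not with arrays centred on their medians (-1.28, adjusted p = 0.0662). These were bulk captures, so fewer cells of a type and less RNA per cell cannot be told apart in this or any later result.

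Akr1c18 (20-alpha-hydroxysteroid dehydrogenase), whose reaction ends the action of progesterone in the corpus luteum, was highest in WT cells after PMSG alone. The 250 bases before its start (RefSeq, GRCm38.p6, chr13:4150647-4150896, minus strand, written 5' to 3' along the gene) hold no motif match either.
Akr1c18: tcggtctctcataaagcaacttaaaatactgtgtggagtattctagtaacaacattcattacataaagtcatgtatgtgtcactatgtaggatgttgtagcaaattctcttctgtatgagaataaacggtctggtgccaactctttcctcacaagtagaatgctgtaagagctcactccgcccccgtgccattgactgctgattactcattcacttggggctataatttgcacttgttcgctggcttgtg

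The intensities of Akr1c18 were 314, 362 and 213 in bERKO after hCG. They were 53.1, 262 and 68.4 in WT after hCG. After PMSG alone they were 113, 303 and 151 in bERKO and 629, 775 and 555 in WT. The 3 WT PMSG arrays were above the other 9, and bERKO hCG and WT hCG arrays overlapped through WT hCG replicate 2.

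After hCG the change of Akr1c18 in bERKO cells was 0.52 (SE 0.49, adjusted p = 0.508), with overlapping arrays. In WT cells it fell by 2.65 on the log2 scale (SE 0.49, adjusted p = 0.0228), to a level 6.27-fold lower (95% interval 3.00 to 13.1). The bERKO response minus the WT response was 3.17 (SE 0.69, 95% interval 1.66 to 4.67), with an adjusted p of 0.04995 in limma, just under the threshold. Neither genotype comparison passed: bERKO minus WT was 1.62 after hCG (SE 0.49, adjusted p = 0.0999) and -1.55 after PMSG alone (SE 0.49, adjusted p = 0.347), where the 3 bERKO arrays lay below the 3 WT arrays. The call on the difference of responses was lost under 15 of 20 alternatives, among them the values as deposited (adjusted p = 0.0504) and without WT hCG replicate 1 (2.86, adjusted p = 0.109), over a range of 2.58 to 3.79. The WT call was lost under 6 of 21 alternatives, including leaving out WT PMSG replicate 1, 2 or 3 or WT hCG replicate 3 (adjusted p up to 0.0866), with changes of -3.27 to -2.15.

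Sult1e1 (estrogen sulfotransferase) was the enzyme of estrogen inactivation. The 250 bases before its start (RefSeq, GRCm38.p6, chr5:87591612-87591861, minus strand, written 5' to 3' along the gene) are shown with their single motif match in capitals, the reverse strand of AAGGTCA, a motif of the NR5A receptors, 113 to 107 bases before the start.
Sult1e1: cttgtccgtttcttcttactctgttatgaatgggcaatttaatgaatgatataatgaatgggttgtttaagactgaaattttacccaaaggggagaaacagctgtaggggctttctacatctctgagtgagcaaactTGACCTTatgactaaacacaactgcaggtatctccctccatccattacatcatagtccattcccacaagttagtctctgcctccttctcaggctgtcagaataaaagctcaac

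On both strands of the 250 bases, 6 motifs were searched: AAGGTCA, the cAMP response element TGACGTCA and its core TGACGT, the palindromic estrogen response element and its core, and the palindromic steroid response element. Of 32851 promoters in the RefSeq table, 4.08% held AAGGTCA, 6.47% held TGACGT and 1.55% the TGACGTCA that contains it. The estrogen response element was held by 0.0213%, its core by 0.0639% and the steroid response element by 0.00913%. Of the 6 members, 5 had a promoter in that table, and only the Sult1e1 window held a match, AAGGTCA. A match of these letters is a description and not a site. NR5A2, an NR5A receptor of granulosa cells, had intensities of 10259 to 17693 over the 12 arrays. Its mean log2 level was 13.42 in bERKO and 13.94 in WT after hCG, and 13.73 and 13.85 after PMSG alone. Its part in the Sult1e1 level was not tested.

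Sult1e1 had intensities of 21413, 20678 and 24057 on the bERKO hCG arrays. On the WT hCG arrays it had 49.2, 6554 and 12886. After PMSG alone the intensities were 2.13, 1.71 and 7.48 in bERKO and 8.11, 4.35 and 1.98 in WT. All 6 hCG arrays lay above all 6 PMSG arrays, but WT hCG replicate 1 lay nearer to the PMSG arrays than to the other WT hCG arrays.

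Sult1e1 rose in both genotypes. In bERKO the change after hCG was 10.02 (SE 1.49, adjusted p = 0.00111), and in WT it was 6.50 (SE 1.49, adjusted p = 0.0480). This shared SE does not show the spread of single groups. Their SDs were 0.13 in bERKO and 4.32 in WT after hCG, and 0.42 and 0.26 after PMSG. The sizes of the changes depend on the added 16, since the PMSG levels were near background: in bERKO the change was 8.32 with 64 added and 12.08 with 1 added. The bERKO groups and the WT groups were not shown to respond differently, with a difference of responses of 3.53 (95% interval -1.07 to 8.12, adjusted p = 0.461). After hCG bERKO minus WT was 3.51 (SE 1.49, adjusted p = 0.243) although the 3 bERKO arrays lay above the 3 WT arrays, and after PMSG alone it was -0.01 (SE 1.49, adjusted p = 0.999).

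The WT result for Sult1e1 rested on how WT hCG replicate 1 was treated. Without that array the WT change was 8.97 (adjusted p = 1.73e-06), the change of bERKO against WT after hCG was 1.04 (adjusted p = 0.245) and the difference of responses 1.05. The WT call was lost under 17 of 21 alternatives, with adjusted p up to 0.175. On the same array Pgr (progesterone receptor) had an intensity of 22.5, against 7659 and 8761 on the other WT hCG arrays, and Star (cholesterol transport into mitochondria) had 1456, against 16800 and 16220.5. Akr1c18 was low on that array and Hsd11b2 was the highest of the 3. The part of its Gapdh 3'/5' ratio in these values was not tested.

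**Figure D2:**
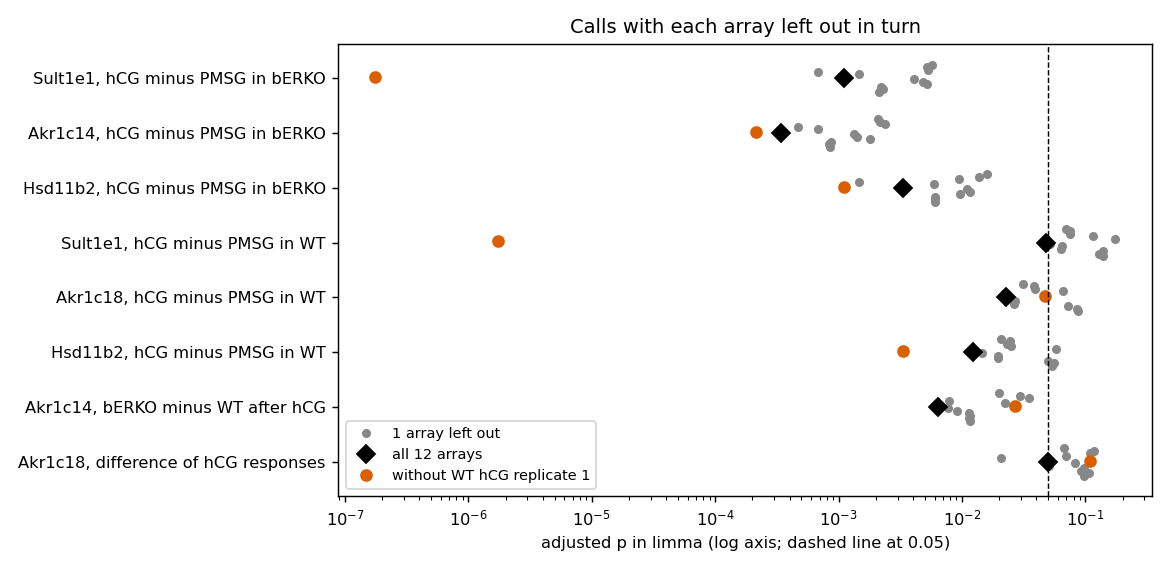
Adjusted p in limma on a log axis for the 8 member results that passed with all 12 arrays (diamonds), with 1 array left out in turn (circles; orange without WT hCG replicate 1) and a dashed line at 0.05. The 3 calls of the bERKO response and the Akr1c14 genotype call stay left of the line throughout, while the 3 WT calls and the Akr1c18 difference of responses cross it.

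Of the glucocorticoid enzymes, Hsd11b2 (11-beta-hydroxysteroid dehydrogenase 2, the oxidase) was lower after hCG in both genotypes. Its intensities were 578, 499.6 and 407 in bERKO after hCG. They were 1574, 1030.35 and 653 in WT after hCG. After PMSG alone they were 1585, 1818 and 1974 in bERKO and 4039, 4508 and 3709 in WT. As deposited no groups overlapped, though the lowest bERKO PMSG array (1585) lay just above the highest WT hCG array (1574). After normalization bERKO hCG and WT hCG overlapped through WT hCG replicate 3.

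Hsd11b2 fell by 1.78 on the log2 scale in bERKO after hCG (SE 0.32, adjusted p = 0.00333) and fell by 2.06 in WT (SE 0.32, adjusted p = 0.0123). These were levels 3.42-fold lower in bERKO (95% interval 2.10 to 5.60) and 4.17-fold lower in WT (95% interval 2.55 to 6.81). The difference of responses was 0.28 (95% interval -0.72 to 1.29, adjusted p = 0.820). Neither genotype comparison passed: bERKO minus WT was -0.91 after hCG (SE 0.32, adjusted p = 0.160) and -1.19 after PMSG alone (SE 0.32, adjusted p = 0.283), where the groups did not overlap. The WT call was lost under 4 of 21 alternatives, without WT PMSG replicate 1 or 2, without WT hCG replicate 2 and on the 6 WT arrays alone (adjusted p up to 0.0738). After hCG the genotype change passed without WT hCG replicate 3 (-1.26, adjusted p = 0.0459) and was -0.58 without WT hCG replicate 1.

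Hsd11b1, the reductase that regenerates corticosterone, had intensities of 11.3, 4.41 and 8.17 in bERKO after hCG and 66.1, 2.80 and 6.50 in WT after hCG. After PMSG alone it had 19.4, 10.6 and 3.92 in bERKO and 7.89, 2.82 and 7.26 in WT. Only WT hCG replicate 1 and bERKO PMSG replicate 1 exceeded 16, and all groups overlapped. Its changes were -0.30 after hCG in bERKO (adjusted p = 0.722), 0.46 after hCG in WT (adjusted p = 0.713), -0.45 for bERKO against WT after hCG (adjusted p = 0.715) and 0.31 after PMSG (adjusted p = 0.889). Without WT hCG replicate 1 both changes that use it turned sign, to -0.23 in WT and 0.24 between genotypes after hCG. H6pd, which supplies the cofactor for the Hsd11b1 reaction, was measured at 611, 344 and 273 in bERKO and 536, 364 and 495 in WT after hCG, with a change of -0.06 (adjusted p = 0.968).

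**Figure D3:**
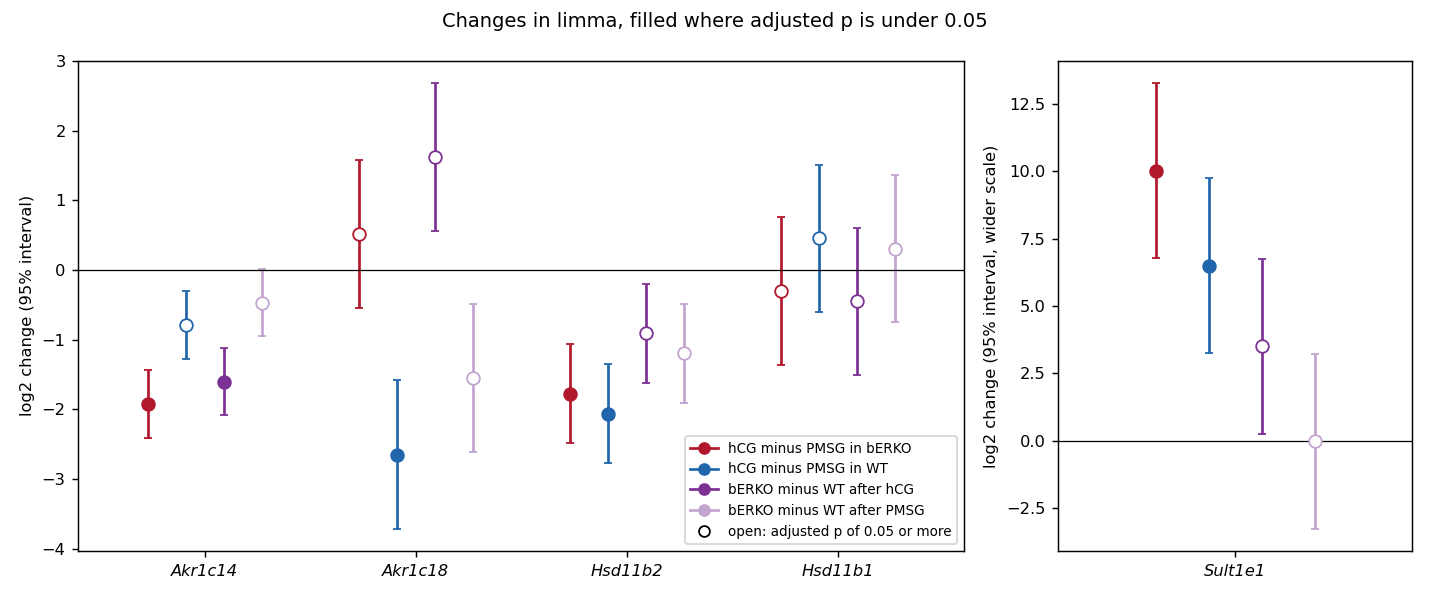
Log2 change of each measured enzyme with its 95% interval in limma, for 4 comparisons of 3 arrays per group; filled points passed at an adjusted p under 0.05 and Sult1e1 has a wider scale of its own. Akr1c14 and Hsd11b2 have filled points below 0 for the hCG response in bERKO, Hsd11b2 and Akr1c18 for that in WT, and Sult1e1 filled points above 0 for both.

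Counted over the 5 measured members, 3 passed for the hCG response in bERKO (Sult1e1 higher, Akr1c14 and Hsd11b2 lower), where 18.9% of all genes passed. In WT 3 passed (Sult1e1 higher, Akr1c18 and Hsd11b2 lower), where 2.08% of all genes passed. Between genotypes after hCG 1 passed (Akr1c14, lower in bERKO), where 3.09% of all genes passed and 1.54% were lower, and after PMSG 0 passed with 0.011%; 2 genes of 18193 passed there in limma and 1733 had an unadjusted p under 0.05. For the difference of responses 1 passed (Akr1c18, higher), where 1.31% of all genes passed, 0.676% higher and 0.638% lower. The median change of the 5 was -0.30 after hCG in bERKO (all genes -0.19), -0.78 in WT (all genes -0.08), -0.45 for bERKO against WT after hCG (all genes -0.06) and -0.47 after PMSG (all genes 0.04). Groups did not overlap in normalized level for 3 of 5 members after hCG in bERKO (36.2% of all genes), 4 in WT (24%), 2 between genotypes after hCG (24.5%) and 3 after PMSG (14.7%). With values as deposited Akr1c14 overlapped between genotypes after PMSG, and with arrays centred on their medians its change there was 0.09. The comparisons share arrays, so these counts are not independent of each other.

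The order of group means differed among the enzymes. For Akr1c14 the normalized level was 11.90 ± 0.09 in bERKO after hCG, 13.50 ± 0.20 in WT after hCG, 13.82 ± 0.09 in bERKO after PMSG and 14.28 ± 0.08 in WT after PMSG (SD, n = 3 each), and no neighbours in this ascending order overlapped. Hsd11b2 had the same order, with 9.04 ± 0.23, 9.95 ± 0.68, 10.82 ± 0.12 and 12.01 ± 0.14 in those groups, and the lowest pair overlapped. For Akr1c18 the levels were 8.31 ± 0.39 in bERKO and 6.69 ± 1.07 in WT after hCG, and 7.79 ± 0.58 in bERKO and 9.34 ± 0.25 in WT after PMSG. WT after PMSG was highest, followed by bERKO after hCG, bERKO after PMSG and WT after hCG, and the last 3 of these overlapped from neighbour to neighbour. Sult1e1 had 14.44 ± 0.13 in bERKO and 10.92 ± 4.32 in WT after hCG, while the PMSG groups overlapped at 4.42 ± 0.42 in bERKO and 4.43 ± 0.26 in WT. Hsd11b1 had group means of 4.53 ± 0.20 in bERKO and 4.97 ± 1.18 in WT after hCG, and 4.83 ± 0.42 in bERKO and 4.52 ± 0.23 in WT after PMSG, with all neighbours overlapping.

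Markers of other cell types were not equal across the groups. The summed intensity of 8 endothelial markers was 1098 to 2021 in bERKO after hCG, 283 to 360 in WT after hCG, 70.4 to 251 in bERKO after PMSG and 267 to 457 in WT after PMSG, and 4 of the 8 (Cdh5, Emcn, Flt1 and Kdr) were higher in bERKO than in WT after hCG, against 1.55% of all genes. For 8 stromal markers the sums were 3885 to 15992, 1948 to 2612, 843 to 3419 and 593 to 6841 in the same 4 groups. For 8 leukocyte markers they were 639 to 1907, 227 to 457, 172 to 887 and 153 to 391, and for 8 oocyte markers 908 to 2128, 619 to 1168, 4947 to 15676 and 384 to 4068. Of the stromal, leukocyte and oocyte markers, 0 of 8 each passed between genotypes. This held after hCG and after PMSG, where 3.09% and 0.011% of all genes passed. The 6 theca markers summed to 3363 to 5945, 8177 to 13472, 13012 to 15802 and 11624 to 13093. Those sums were carried mostly by Aldh1a1 and Ptch1. Of the 6, 1 (Aldh1a1) was lower in bERKO than in WT after hCG (change -1.28, adjusted p = 0.0361), against 1.54% of all genes. Hsd17b3 missed the threshold there (adjusted p = 0.0559) but passed with values as deposited (-1.89, adjusted p = 0.0472). Cyp17a1, the androgen-forming enzyme of theca cells, had 100, 209 and 233 in bERKO and 169, 292 and 344 in WT after hCG. Its change was -0.38 (adjusted p = 0.776). The 3 erythrocyte markers summed to 86.9 to 143, 74.1 to 161, 78.8 to 158 and 126 to 167. Of the 7 granulosa markers measured, 2 (Fshr and Foxl2) were lower in bERKO than in WT after hCG, against 1.54% of all genes, and the mean level of the 7 was 11.26 to 11.50 in bERKO and 11.91 to 12.25 in WT. No marker was at 0 on any array, but many values lay under 16. These were 31 of 96 endothelial, 11 of 96 stromal, 30 of 96 leukocyte and 11 of 96 oocyte values. Of the theca values 18 of 72 lay under 16, of the erythrocyte values 10 of 36 and of the granulosa values 8 of 84. The part of these cell types in the Akr1c14, Hsd11b2 and Sult1e1 results of bERKO was not tested.

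A wider list of enzymes that inactivate or interconvert progestins, estrogens, androgens and glucocorticoids held 27 genes, of which 22 were measured. After hCG in bERKO 7 of the 22 fell and 0 rose, against 11.9% and 7.05% of all genes, with a median change of -0.55 (all genes -0.19). In WT 1 of the 22 fell and 0 rose, against 1.35% and 0.731% of all genes, with a median of -0.17 (all genes -0.08). No gene of the list passed between genotypes or for the difference of responses. Of all genes 3.09% passed between genotypes after hCG, 0.011% after PMSG and 1.31% for the difference. With shares this low, 0 of 22 does not set the list apart from all genes. Fewer genes passed in WT than in bERKO over all genes too. As deposited 6 fell in bERKO and 1 in WT, with median centring 9 and 2, and without both arrays of high Gapdh ratio 6 and 3; these settings were applied to the lists after their values were seen.

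Cyp1b1, which hydroxylates estradiol, had intensities of 3575, 3805 and 752 in bERKO after hCG and 13437, 12307 and 13809 in bERKO after PMSG. In WT it had 12296, 9672 and 4259 after hCG and 3271, 5622 and 5351 after PMSG. It fell by 2.42 in bERKO (SE 0.56, adjusted p = 0.0112), while its WT change was 0.89 (adjusted p = 0.465). The difference of responses was -3.31 (adjusted p = 0.0652) and missed the threshold. Akr1c13, an aldo-keto reductase of the same family as Akr1c14 and Akr1c18, was the gene of this list that fell in both genotypes. It had 145, 126 and 39.2 in bERKO after hCG against 341, 455 and 314 after PMSG, and 174, 132 and 55.2 in WT after hCG against 996, 414 and 743 after PMSG. The changes were -2.02 in bERKO (adjusted p = 0.0224) and -2.62 in WT (adjusted p = 0.0331).

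Hsd17b10, a mitochondrial dehydrogenase that oxidises estradiol, had 1471, 1564 and 1177 in bERKO after hCG against 3777, 3542 and 2202 after PMSG. It fell by 1.08 (adjusted p = 0.0147). In WT it had 1713, 1703 and 1898 after hCG against 3586, 3511 and 3457 after PMSG, without overlap. Its WT change of -0.99 missed the threshold (adjusted p = 0.0790). That change passed with median centring (-1.24, adjusted p = 0.0387) and without both arrays of high Gapdh ratio (-0.95, adjusted p = 0.0464). Akr1c19, another aldo-keto reductase, fell by 1.93 in bERKO (adjusted p = 0.0198) at low intensities, 2.79, 9.17 and 20.3 after hCG against 64.9, 32.6 and 102 after PMSG. In WT it had 38.1, 20.5 and 2.61 after hCG against 91.1, 38.7 and 87.4 after PMSG (adjusted p = 0.153). It passed in WT without both arrays of high Gapdh ratio (-1.83, adjusted p = 0.0478). The other 3 that fell in bERKO were Cyp7b1 (-2.09, adjusted p = 0.0368), which hydroxylates oxysterols and some androgens, Hsd17b11 (-1.14, adjusted p = 0.0432), which oxidises an androgen metabolite, and Akr1cl (-0.80, adjusted p = 0.0266). The bERKO call of Cyp7b1 was lost as deposited (adjusted p = 0.0900), and that of Hsd17b11 without both arrays (adjusted p = 0.0632). The other 15 of the 22 did not pass in bERKO.

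**Figure D4:**
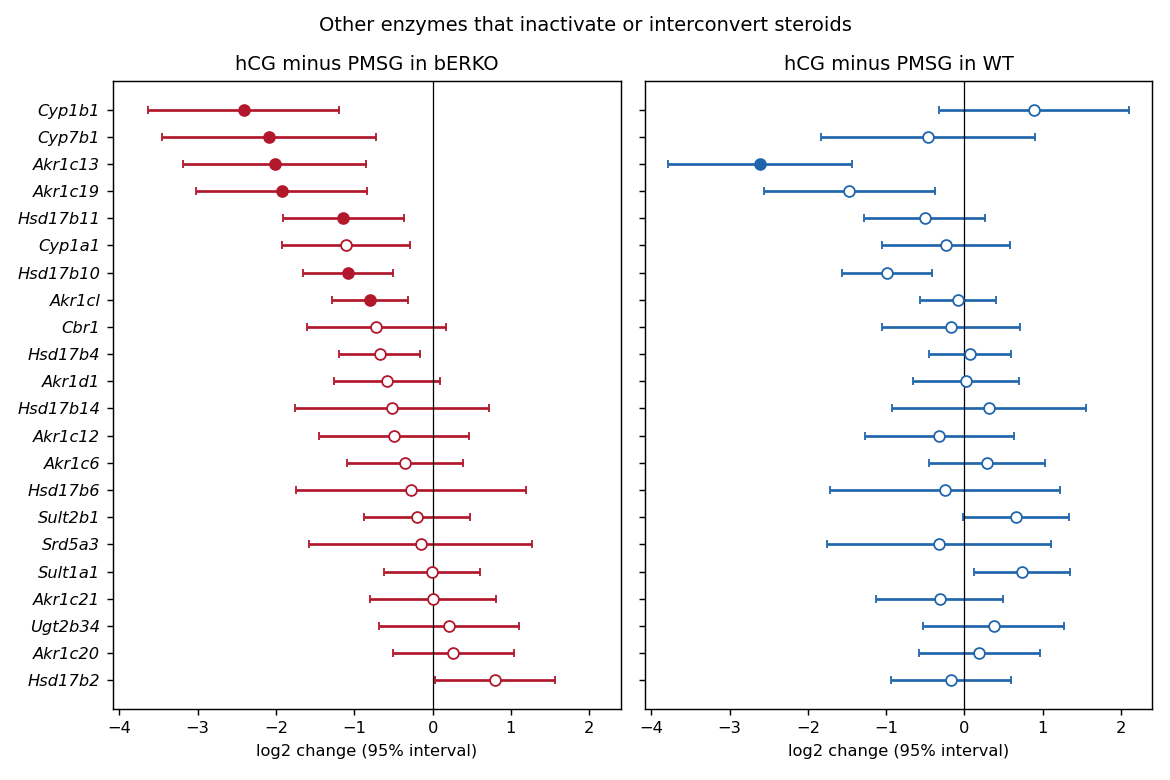
Log2 change after hCG with its 95% interval for the 22 measured enzymes of the wider list, in bERKO on the left and in WT on the right; filled points passed at an adjusted p under 0.05. In bERKO 7 filled points lie below 0 and none above, and in WT Akr1c13 is the filled point.

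The steps that make or sense the hormones gave the following values. Of 8 measured steroid synthesis genes, 4 rose and 1 fell after hCG in bERKO, against 7.05% and 11.9% of all genes, and 1 rose in WT, against 0.731%. Star rose by 6.51 in bERKO (adjusted p = 0.000547) and by 4.03 in WT (adjusted p = 0.0345). Cyp11a1, which cleaves the side chain of cholesterol, rose by 5.76 in bERKO (adjusted p = 0.00307), and its WT change was -0.83 (adjusted p = 0.759). The WT change turned to 0.25 without WT hCG replicate 1 (adjusted p = 0.940), and the bERKO rise was 4.49 without bERKO PMSG replicate 3 (adjusted p = 0.00635). After PMSG alone Cyp11a1 had 420, 796 and 16.7 in bERKO and 2641, 2503 and 5303 in WT, without overlap. Its bERKO minus WT change was -3.71 there (adjusted p = 0.297) and 2.89 after hCG (adjusted p = 0.162), and neither passed. Its difference of responses was 6.60 (adjusted p = 0.0526), and it passed as deposited (6.83, adjusted p = 0.0494), with median centring (6.73, adjusted p = 0.0287) and without both arrays (4.24, adjusted p = 0.0320), but not without WT hCG replicate 1 alone (adjusted p = 0.0961) or bERKO PMSG replicate 3 alone (adjusted p = 0.0646). Fdx1, the electron donor of Cyp11a1, rose by 1.90 in bERKO (adjusted p = 0.00107), with a WT change of 0.70 (adjusted p = 0.221) that passed without both arrays (0.97, adjusted p = 0.0398). Hsd17b1, which forms estradiol from estrone, fell by 1.24 in bERKO (adjusted p = 0.0162). Hsd17b7, which also forms estradiol from estrone and acts in cholesterol synthesis, rose by 2.43 in bERKO after hCG (adjusted p = 0.00233). It was 3.38 higher in bERKO than in WT after hCG on the log2 scale (adjusted p = 0.00406), and its difference of responses was 3.86 (adjusted p = 0.0129). It had 17209, 16372 and 5738 in bERKO against 1118, 1282 and 1066 in WT.

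Of 10 measured steroid receptors and early target genes, 3 rose and 2 fell after hCG in bERKO, against 7.05% and 11.9% of all genes, and 0 passed in WT, against 2.08%. The glucocorticoid receptor Nr3c1 had 755, 959.6 and 769 in bERKO after hCG against 245, 186 and 160.0 after PMSG, and rose by 1.86 (adjusted p = 0.00606). In WT it had 283, 967 and 759.6 after hCG against 232, 181 and 193 after PMSG, without overlap, and its change of 1.45 missed the threshold (adjusted p = 0.0755). Pgr rose by 8.50 in bERKO (adjusted p = 0.00398) and had a change of 4.03 in WT (adjusted p = 0.222). Without WT hCG replicate 1, Nr3c1 and Pgr passed in WT too (1.95, adjusted p = 0.00593, for Nr3c1; 6.71, adjusted p = 2.46e-05, for Pgr). The kinase Sgk1, a glucocorticoid target, rose by 3.25 in bERKO (adjusted p = 0.00115), with a WT change of 1.14 (adjusted p = 0.253), while the glucocorticoid target Tsc22d3 fell by 1.79 in bERKO (adjusted p = 0.00606). The estrogen receptor Esr1 fell by 3.45 in bERKO (adjusted p = 0.000155), and its difference of responses was -2.55 (adjusted p = 0.0236). Among 7 measured cofactor and reactivation genes, 2 fell in bERKO, against 11.9% of all genes, the sulfatase activators Sumf1 (-1.46, adjusted p = 0.00738) and Sumf2 (-1.32, adjusted p = 0.0125), and 0 passed in WT, against 2.08%. Without both arrays of high Gapdh ratio Sumf2 passed in WT too (-1.43, adjusted p = 0.0254).

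Genes with the most similar levels over the 12 arrays were found by Pearson's r among genes with a mean log2 level of at least 7, and the arrays share their hormone and genotype groups. For Sult1e1 these were Nmu (0.996), Snap25 (0.993) and Egr3 (0.990). For Akr1c14 they were Cox7a2l (0.979), Uck1 (0.969) and Myo6 (0.969), and for Hsd11b2 Spout1 (0.960), Macrod2 (0.953) and Hibadh (0.945). The values for Akr1c18 were lower, with Ces2g (0.884), Edem3 (0.880) and Mthfd2 (0.867). For Hsd11b1 they were Lima1 (0.915), Zbtb26 (0.886) and Mospd3 (0.879), and its level stood clear of the floor mainly on WT hCG replicate 1.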

How the data were processed

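Per the labels, 25 ng of total RNA from laser-captured cells was amplified and biotinylated with NuGEN kits and hybridised, 1 array per sample. The deposited values are linear intensities that the authors had scaled to a 2% trimmed mean of 500.0 per array, as the values show; the sources used here do not name the software. Of 45101 probe sets 64 controls were left out. The probe table named 1 gene for 34945 of the rest, several for 932 and none for 9160.

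Intensities were quantile normalized, since array medians differed by more than 0.5, and taken as log2(intensity + 16). The probe set with the highest mean stood for a gene (18193 genes), with no dim filter. Group means over all 12 arrays were fitted in R 4.3.3 with eBayes of limma 3.58.1 (and statmod 1.5.0), two-sided. The number of arrays limits the precision. The fit was tested on simulated data. Figures used Python 3.11.15 and matplotlib 3.10.9.

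The members, gene lists and tests were chosen with earlier results of these data known. Named genes were all members, up to 4 passing genes per other list and comparison by smallest p, and Cyp11a1, Star, Pgr, Nr3c1 and Esr2; Cyp7b1, Hsd17b11, Akr1cl, H6pd, Hsd17b1 and the markers lie outside it, chosen after their values were seen. Likeness took the 3 highest r per member. Replicate numbers were not used as pairs, since the labels give no shared animal, day or batch. Of 18 pairs with the same number, 1 correlated above 0.1 (-0.08 to 0.12), and such values cannot exclude a shared day or batch. Alternatives were values as deposited, median centring, 1 or 64 added, the mean of probe sets, a dim filter, only the 6 arrays compared, a replicate block, and arrays left out.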

Additional observations from a re-analysis of the deposited data

Results flagged for a closer look

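The hCG response of Akr1c18 differed between the genotypes by a direct test of that difference: the bERKO response minus the WT response was 3.17 on the log2 scale (limma, adjusted p = 0.04995). The hCG and PMSG arrays of bERKO overlapped, while all 3 hCG arrays of WT lay below all 3 PMSG arrays. The call was lost under 15 of 20 alternatives. The Gapdh 3'/5' ratio was high on 1 array of each of the groups WT hCG and bERKO PMSG, and without both arrays the difference missed the threshold; its part in the result was not tested.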

How the results depend on the processing

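The 3 member calls of the hCG response in bERKO and the 0 calls after PMSG held under all 21 alternatives. Between genotypes after hCG the 1 member call became 0 with median centring and was 1 to 2 with 1 array left out. For the difference of responses the 1 call became 0 as deposited, with median centring, with 1 added and without both arrays of high Gapdh ratio, 2 with 64 added, and 0 to 1 with 1 array left out. For the hCG response in WT the 3 calls became 1 with 1 added, 0 on 6 arrays, 4 with the dim filter, and 0 to 3 with 1 array left out. Over all genes, the 562 calls between genotypes after hCG became 225 with 1 added, 882 with 64 added, 219 on 6 arrays, 259 without both arrays, and 141 to 684 with 1 left out. The 2 after PMSG became 7 as deposited, 5 centred, 0 with 1 added, 12 with 64 added, 1 with the mean of probe sets, 1 on 6 arrays, 7 without both arrays, and 0 to 26. The 239 for the difference became 95 with 1 added, 454 with 64 added, 129 with the replicate block, 120 without both arrays, and 81 to 408. The 378 in WT became 233 as deposited, 140 with 1 added, 870 with 64 added, 699 with the dim filter, 148 with the replicate block, 31 on 6 arrays, 835 without both arrays, and 49 to 580. The 3447 in bERKO ran from 2302 to 3969. The direction turned for Akr1c14 after PMSG with centring (0.0896), for Sult1e1 after PMSG with centring (0.17), with 64 added (0.0015) and between -0.25 and 0.13 with 1 array left out, for the Hsd11b2 difference of responses (-0.0659 to 0.615 with 1 array left out, 0.667 without both arrays), and for Hsd11b1 without both arrays, after hCG between genotypes (0.24; -0.83 to 0.24 with 1 array left out) and in WT (-0.23; -0.23 to 0.84); the causes were not tested. Calls were gained by Akr1c14 in WT with 64 added (adjusted p = 0.0175) and with the dim filter (adjusted p = 0.0431), and by Akr1c18 between genotypes after hCG without WT hCG replicate 2 (2.24, adjusted p = 0.0245). With 64 added Akr1c14 also gained a call for the difference of responses (adjusted p = 0.0263). With the replicate block the Sult1e1 call in WT was lost (adjusted p = 0.0645). The median change of all genes after hCG in bERKO was -0.19, against -0.05 as deposited and -0.41 centred, and in WT -0.08, against 0.03 and -0.22; the share of higher genes among all called was 37.2% in bERKO, against 43.0% and 24.3%, 35.2% in WT, against 43.4% and 18.1%, and 50.2% between genotypes after hCG, against 39.1% and 66.5%. Dimness limits Hsd11b1, which was not tested under the dim filter.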
